A study of Mus musculus with 7 samples.

Results

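The open chromatin around Myc was described here in HPC7 cells, from 200 kb upstream of the Myc transcript start to 2 Mb downstream of it (chr15:61785391-63985391, mm10). The members were the open-chromatin regions (OCRs) of this window, that is, the ATAC-seq peaks of 7 libraries joined wherever peaks had at least 1 bp in common, and there were 121 of them among 144931 merged OCRs of the genome. A single library had between 49 and 114 peaks in the window. Bulk ATAC-seq uses the Tn5 transposase to cut and tag accessible DNA, so that reads gather where chromatin is open. HPC7 cells are a mouse line of hematopoietic progenitors, and they were kept in medium with mouse stem cell factor and calf serum. The labels put all 7 libraries (HPC7-1, HPC7-2 and HPC7-4 to HPC7-8) in 1 group with no treatment named, and the study took each from its own culture batch. The results therefore describe 1 cell line, with no comparison of treatments.

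Myc encodes a transcription factor that drives growth and proliferation in most dividing cells. It binds DNA as a dimer with MAX, while the MXD proteins and MNT compete for MAX and repress the same targets. In blood stem and progenitor cells, Myc is controlled from a cluster of enhancers that lies far downstream of the gene, beyond the non-coding gene Pvt1. Deletion of that cluster in mice is known to reduce Myc in these cells. The part of the window from 1550 to 1800 kb downstream of the Myc start, chosen for this known location, is called the blood enhancer segment below.

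The sequences under the strongest OCRs of the segment, and under the strongest distal OCR outside it, are printed so that the sites described can be read directly. Each is the plus strand of the RefSeq GRCm38 sequence, 201 bp centered on the median summit, and capitals mark matches to the motifs that were searched. These were AGATAA (bound by GATA factors), TGTGGT (RUNX), GAGGAA (PU.1-type ETS), CAGNTG (the E-box of TAL1 and E proteins), TGANTCA (AP-1), TTGCNNAA (C/EBP) and the CTCF core consensus, on both strands. A match that overlapped another was still counted.
+1663 kb OCR, chr15:63648291-63648491: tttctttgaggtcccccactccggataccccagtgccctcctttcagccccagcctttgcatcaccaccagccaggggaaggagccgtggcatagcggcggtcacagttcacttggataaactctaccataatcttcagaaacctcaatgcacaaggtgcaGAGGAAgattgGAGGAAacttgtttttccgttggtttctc
+1680 kb OCR, chr15:63665523-63665723: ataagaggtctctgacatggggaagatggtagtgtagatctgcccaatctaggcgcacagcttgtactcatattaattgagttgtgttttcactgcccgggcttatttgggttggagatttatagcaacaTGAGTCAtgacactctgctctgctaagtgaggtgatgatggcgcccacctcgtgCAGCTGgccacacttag
+1673 kb OCR, chr15:63658072-63658272: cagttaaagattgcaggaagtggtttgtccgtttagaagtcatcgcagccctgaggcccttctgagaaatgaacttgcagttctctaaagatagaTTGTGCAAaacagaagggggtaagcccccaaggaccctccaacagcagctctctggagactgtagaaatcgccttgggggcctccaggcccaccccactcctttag
+329 kb OCR, chr15:62314568-62314768: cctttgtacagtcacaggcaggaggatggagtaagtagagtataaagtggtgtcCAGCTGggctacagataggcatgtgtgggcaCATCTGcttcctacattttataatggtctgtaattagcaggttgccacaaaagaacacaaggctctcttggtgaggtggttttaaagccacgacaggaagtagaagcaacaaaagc
The +1663 kb sequence held 2 GAGGAA matches, the +1680 kb sequence held 1 AP-1 match and 1 E-box, the +1673 kb sequence held 1 C/EBP match and the +329 kb sequence held 2 E-boxes.

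The peak lists held between 84593 and 132852 OCRs per library. The background at each peak, recovered from the steps between fold enrichments, was a single value per library between 4.44 and 20.4 reads, and it was highest in HPC7-1. Fold enrichment at the summit is called intensity here, and the intensity percentile of an OCR is its rank by intensity among all peaks of the same library, from 0 for the weakest to 100 for the strongest. Within 1 kb of a start of 9 hematopoietic genes, Kit, Cd34, Gata2, Tal1, Spi1, Runx1, Lmo2, Lyl1 and Ptprc, an OCR was found in all 7 libraries. Of 6 genes of other tissues or cell types, 5 (Alb, Myod1, Neurod1, Cdx2 and Cd3e) had no promoter OCR in any library, and Pax6 had one in all 7. Peak names carried the prefix EtOH in HPC7-5 to HPC7-8 and the prefix VD in the remaining 3 libraries. The labels do not explain these prefixes, which were not taken as conditions.

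Of the 121 OCRs, 46 (38.0%) were found in all 7 libraries, against 46.2% of the OCRs of the genome. A further 24 were found in 1 library, 17 of them in HPC7-1, 6 in HPC7-8 and 1 in HPC7-7, and none of the 24 had a percentile above 33.6. OCRs found in all 7 libraries are called shared from here on, and those more than 3 kb from any annotated transcript start are called distal. The 46 shared OCRs spread unevenly over the window. Upstream of Myc there was 1 shared OCR in 200 kb, the promoter itself, and 0 OCRs of any kind beyond it. Between the Myc start and the Pvt1 end there were 15 shared of 45 OCRs. The next 1157 kb held 9 shared of 36 OCRs, the blood enhancer segment held 18 of 28, and the last 200 kb held 3 of 11. The first shared OCR upstream of the window lay at -444 kb from the Myc start, with a mean percentile of 50.1. The first one downstream of it was at an annotated start of Fam49b, 2013 kb away, with a mean percentile of 96.9 ± 0.470 (SD, n = 7).

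**Figure D1:**
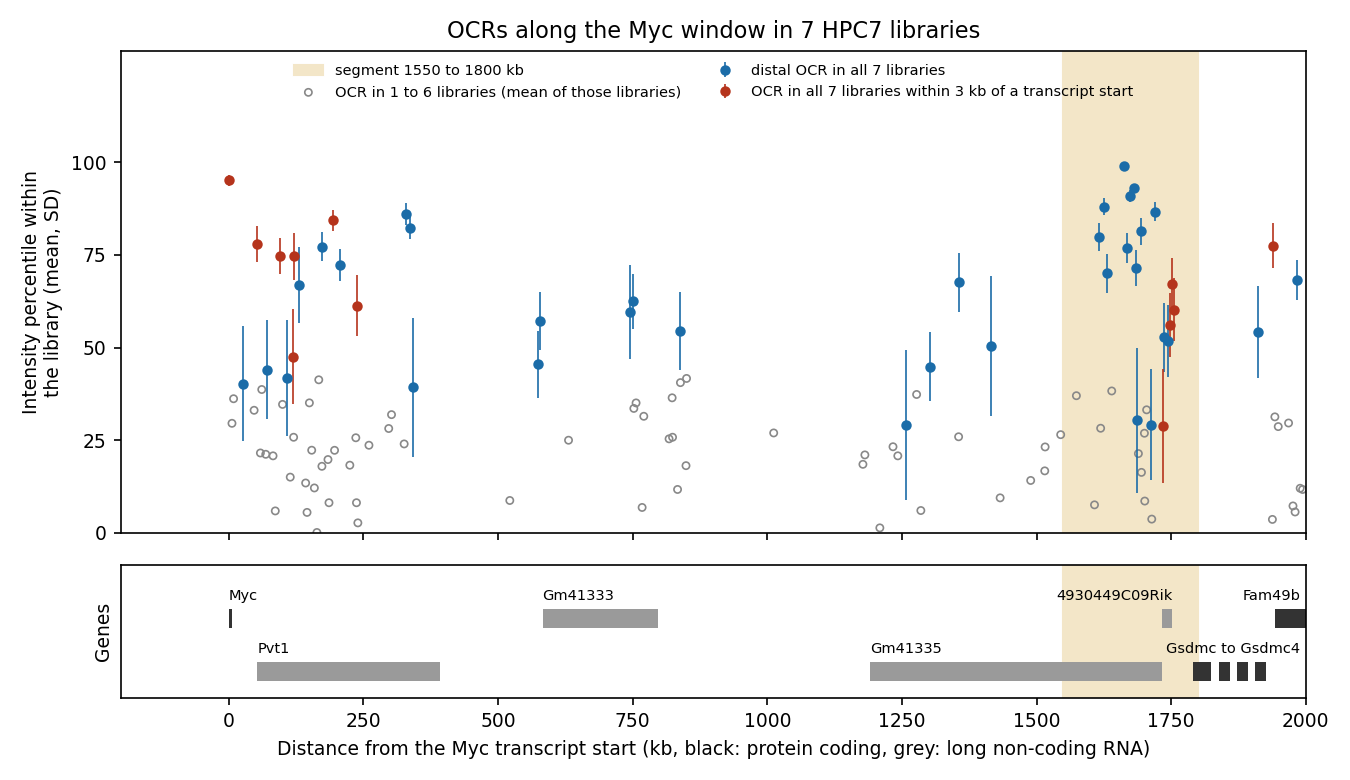
The upper panel plots the mean intensity percentile of every OCR against its distance from the Myc start in kb, with SD bars over 7 libraries for shared OCRs, and the lower panel shows selected genes. Shared OCRs crowd the shaded segment, where the highest reaches a percentile of 98.8, and no OCR lies upstream of the Myc promoter.

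The window as a whole was slightly poorer in OCRs than the rest of its chromosome. It held 36.6 ± 10.1 OCRs per Mb (SD, n = 7), against 42.2 ± 7.77 on the rest of chromosome 15. The ratio within a library lay between 0.699 and 0.948, below 1 in 7 of 7 libraries, a mean log2 ratio of -0.23 ± 0.16 (two-sided exact sign-flip permutation test, adjusted p = 0.0195, Benjamini-Hochberg over 5 tests). The difference missed the threshold when the same number of peaks was taken from each library (log2 ratio -0.20, adjusted p = 0.0586 by the same exact permutation test). The 34 distal shared OCRs of the window had a median percentile of 64.2 ± 8.04, against 61.4 ± 6.22 for those of the rest of the genome. The window thus stood 2.71 ± 3.01 percentage points higher, in 6 of 7 libraries, which did not pass the test (same exact permutation test, adjusted p = 0.0781). Its direction turned with the setting, from -2.37 without HPC7-6, when OCRs shared by the other 6 libraries entered, to 6.06 with 50% overlap.

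The Myc promoter was open in every library. Myc (ENSMUSG00000022346.15) lies on the plus strand at chr15:61985391-61990374, and its promoter OCR spanned chr15:61983034-61988774. This OCR reached from 2357 bp upstream of the start to 3383 bp into the gene, and covered 67.9% of the length of the gene with the first 3 of its 4 blocks of annotated exons. Its intensity was 64.0 at the lowest, 98.9 at the median and 119 at the highest over the libraries, with 408 to 2542 reads at the summit. The percentile was 95.1 ± 1.42 (SD, n = 7), and the main summit lay between -85 and -60 bp from the start in all 7 libraries. In HPC7-2, HPC7-5, HPC7-7 and HPC7-8 a second, smaller peak was called from the same OCR with its summit between -1869 and -1863 bp, at an intensity of 32.5 to 46.2. In the other 3 libraries the same stretch was part of the main peak. Among the promoters of protein-coding genes that had an OCR, Myc stood at a percentile of 64.2 ± 6.56.

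Pvt1, a long non-coding RNA gene that begins 52.6 kb downstream of the Myc start and runs to 393 kb, contained 13 shared OCRs in its introns. The OCR at its first start (chr15:62037391-62039592) had an intensity of 12.4 at the lowest, 22.3 at the median and 25.4 at the highest, and a mean percentile of 77.9 ± 4.77. It ranked below the Myc promoter OCR in every library. An OCR 192 kb from Myc, next to an alternative Pvt1 start, had a mean percentile of 84.3 ± 2.83. The strongest distal OCRs outside the segment were in Pvt1 too. The OCR at +329 kb (chr15:62314370-62314977) had intensities from 23.5 to 47.9 with a median of 39.2 and a mean percentile of 86.0 ± 2.98. The OCR at +336 kb followed with a mean percentile of 82.3 ± 3.03, lower than the first in each of the 7 libraries. Next came +174 kb (77.2 ± 4.0) and +206 kb (72.3 ± 4.32) in Pvt1, and +1984 kb (68.2 ± 5.43) in an intron of Fam49b. A cluster was defined as a run of at least 3 shared OCRs with gaps of at most 20 kb, and 3 of the 5 clusters of the window were inside Pvt1 (2 clusters were left in the window with 50% reciprocal overlap). They ran from 93.6 to 131 kb with 5 OCRs, from 173 to 206 kb with 3 and from 329 to 342 kb with 3.

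Between Pvt1 and the segment, open chromatin was sparse. The widest stretch without a shared OCR was 420 kb long, from 837 to 1257 kb, and held 9 OCRs found in some of the libraries. The 9 shared OCRs between Pvt1 and the segment had mean percentiles from 29.0 to 67.5 with a median of 54.4, and none reached 75. No cluster was found there. The last 4 of them, from 1258 to 1415 kb, lay like most of the segment in introns of Gm41335, a long non-coding RNA gene on the minus strand (chr15:63176838-63718289).

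The blood enhancer segment had a higher density of OCRs than the rest of the window as a whole. It held 72.0 OCRs per Mb in the lowest library, HPC7-6, and 108 in the highest, HPC7-8, with a mean of 91.4 ± 12.53 (SD, n = 7), while the rest of the window held 15.9 to 45.1 with a mean of 29.6 ± 9.88. The 2 sets of values did not overlap. The ratio within a library was 2.30 in HPC7-1, where the rest of the window had most peaks, and 4.53 in HPC7-6, where it had fewest, a mean log2 ratio of 1.69 ± 0.32, above 0 in 7 of 7 libraries (two-sided exact sign-flip permutation test, adjusted p = 0.0195). The mean log2 ratio was 1.601 over the 3 libraries with the prefix VD and 1.754 over the 4 with EtOH. The rest of the window was uneven. The stretch between the Pvt1 end and the segment held 17.9 ± 6.69 OCRs per Mb per library, but the stretch from Myc to the Pvt1 end held 74.9 ± 25.2, from 40.7 in HPC7-6 to 117 in HPC7-1. Its values overlapped those of the segment, which was denser in 6 of 7 libraries and less dense in HPC7-1, with 104 OCRs per Mb, and this difference was not tested. Merged over the libraries, the Myc to Pvt1 stretch held 115 OCRs per Mb and the segment 112. A share of 29.4% ± 4.65 of the peaks of the window fell in this segment of 250 kb. Such density was not rare in the genome. Of 10890 bins of 250 kb, 11.5% held at least as many shared OCRs as the 18 of the segment, and the median bin held 2.

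**Figure D2:**
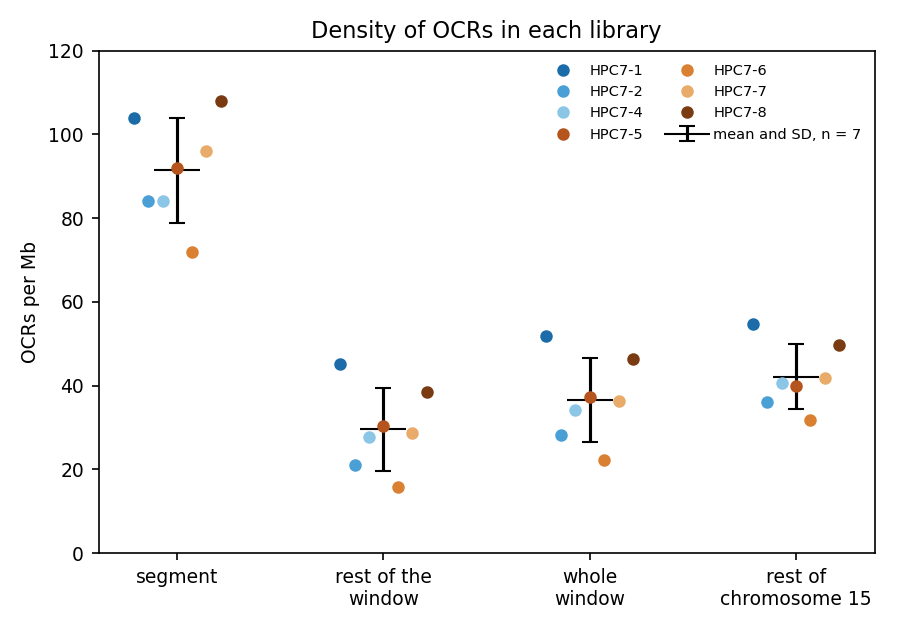
Points give the OCRs per Mb of each library in the segment, in the rest of the window, in the whole window with the segment, and on the rest of chromosome 15, and bars give the mean and SD of 7 libraries. The segment, at 72.0 to 108 OCRs per Mb, lies above the rest of the window, at 15.9 to 45.1, in every library.

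The distal shared OCRs of the segment were also more intense than those of the rest of the window as a whole, and wider than those of the genome. Over all shared OCRs, those near starts included, the median of the mean percentiles was 70.7 in the segment. It was 72.3 from Myc to the Pvt1 end, and this comparison was not tested. The median percentile of its 14 distal shared OCRs was 74.1 in the lowest library and 82.8 in the highest, with a mean of 78.0 ± 3.64 (SD, n = 7), against 57.3 ± 10.0 for the 20 of the rest of the window. The groups did not overlap, and the difference within a library was 20.8 ± 7.94 percentage points, above 0 in 7 of 7 libraries (two-sided exact sign-flip permutation test, adjusted p = 0.0195). Its size depended on which starts define a promoter. With the starts of protein-coding genes alone, which makes OCRs near non-coding starts distal, it was 10.2 ± 5.62 points. The median width was 878 ± 121 bp in the segment and 501 ± 67.4 bp over all other distal shared OCRs of the genome. This difference of 377 ± 70.2 bp was positive in 7 of 7 libraries (same exact permutation test, adjusted p = 0.0195) and was 229 ± 115 bp with protein-coding starts alone. Peak width and height come from the same reads and are not independent. In bulk libraries, openness in fewer cells and lower openness per cell cannot be told apart.

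The 18 shared OCRs of the segment fell into 2 clusters, a small one of 3 OCRs from 1616 to 1632 kb and the main one of 15 OCRs from 1662 to 1756 kb (chr15:63647210-63741017, 93.8 kb). With gaps of up to 50 kb they joined into 1 cluster of 139.5 kb. With gaps of up to 12500 bp the main cluster split into 7 OCRs from 1662 to 1694 kb and 6 from 1735 to 1756 kb, with +1713 and +1720 kb in neither, and the Pvt1 cluster from 173 to 206 kb was lost. Of the 15 shared OCRs of the window with a mean percentile of at least 75, 8 were in the segment, and all 8 were distal. These counts depended on the setting. With a -log10 q of at least 5, +1667 kb in the segment fell to 74.3 and +174 kb in Pvt1 to 74.6. With equal numbers of peaks per library they fell to 71.5 and 72.0. Both settings take out the weakest peaks before ranking, so lower percentiles are built into them.

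The strongest was the OCR at +1663 kb (chr15:63647210-63649355), at the Myc side of the main cluster and in an intron of Gm41335. Its intensity was 110 at the lowest, 174 at the median and 203 at the highest, with 700 to 3713 reads at the summit. The percentile was 98.8 ± 0.479 (SD, n = 7), and 97 of 40438 distal shared OCRs of the genome had a higher mean percentile. Its summit moved by no more than 34 bp between libraries, and the peak was 1894 ± 173 bp wide. In every library it stood above the Myc promoter OCR, by 1.46 times in HPC7-1, the lowest ratio, and by 2.06 times in HPC7-8, the highest, a mean of 1.745 ± 0.192. The ranges of the 2 OCRs over the libraries overlapped, and HPC7-6 was the lowest library at both. No other OCR of the segment exceeded the promoter in all 7 libraries.

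**Figure D3:**
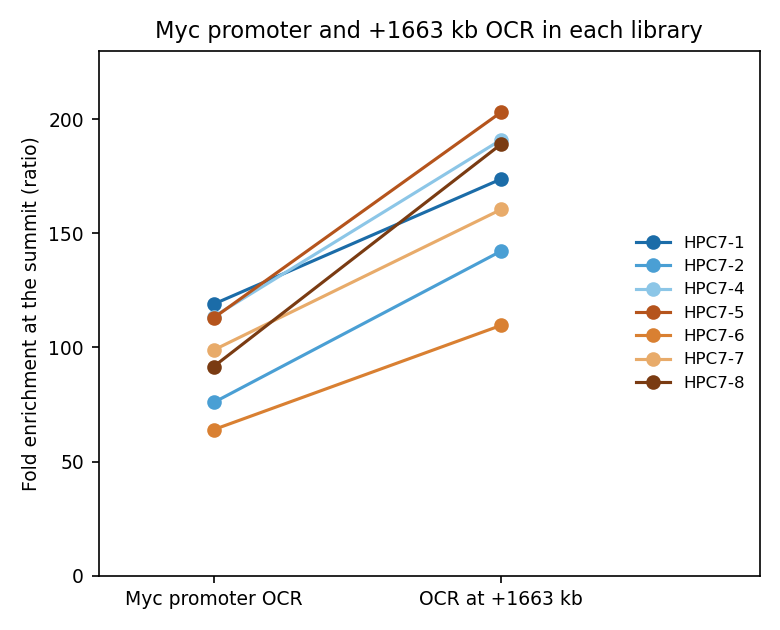
Lines join the fold enrichment of the Myc promoter OCR and of the OCR at +1663 kb in each of the 7 libraries. Every line rises, from 64.0 to 119 at the promoter to 110 to 203 at +1663 kb.

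The OCR at +1680 kb (chr15:63664931-63665979) came next, with intensities from 57.3 to 95.5 and a median of 76.6. Its percentile of 93.0 ± 1.13 was 5.79 ± 1.07 points under that at +1663 kb, lower in 7 of 7 libraries. The OCR at +1673 kb (chr15:63657322-63659145) had intensities from 45.8 to 69.1 and a percentile of 90.9 ± 1.72, lower than +1680 kb in 6 of 7 libraries. These 3 OCRs were the strongest distal ones of the window in the mean. In the smaller cluster, +1626 kb (chr15:63610847-63611799) led with intensities from 31.6 to 60.4 and a percentile of 87.9 ± 2.26. The OCR at +1720 kb (chr15:63704111-63705459) followed with 86.6 ± 2.65, which was 1.30 ± 0.52 points lower and lower in 7 of 7 libraries. The next values were 81.3 ± 3.63 at +1694 kb and 79.8 ± 3.87 at +1616 kb, and these neighbors overlapped, the first being higher in 5 of 7 libraries. The OCR at +1667 kb stood at 76.9 ± 3.96, that at +1684 kb at 71.4 ± 4.79 and that at +1632 kb at 70.1 ± 5.26. The last pair differed by less than their spread, with +1684 kb higher in 5 of 7 libraries.

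The far end of the segment was weaker. It is covered by 4930449C09Rik and Gm41336, non-coding RNA genes on the plus strand, and its 6 shared OCRs from 1735 to 1755 kb had mean percentiles from 28.9 to 67.2. Of these, +1751 kb (67.2 ± 6.80) and +1736 kb lay in exons of 4930449C09Rik, and +1755 kb (60.2 ± 8.42) lay in an exon of Gm41336. The OCRs at +1748 kb (56.2 ± 8.60) and +1736 kb (52.7 ± 9.37) could not be ordered, the first being higher in 4 of 7 libraries. The same held for +1736 kb and +1744 kb (51.8 ± 9.68), again with the first higher in 4 of 7. Against +1744 kb, +1748 kb was higher in every library except HPC7-8 (51.6 against 62.9). The 3 lowest shared OCRs of the segment were +1687 kb (30.4 ± 19.6), +1713 kb (29.2 ± 14.9) and +1735 kb (28.9 ± 15.3), and their order changed between libraries. Intensities at +1687 kb lay between 2.97 and 6.85, and the percentile there moved from 4.88 in HPC7-6 to 54.2 in HPC7-1. Of the 10 other OCRs of the segment, which 1 to 6 libraries shared, the highest mean percentile was 38.3, at +1640 kb.

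**Figure D4:**
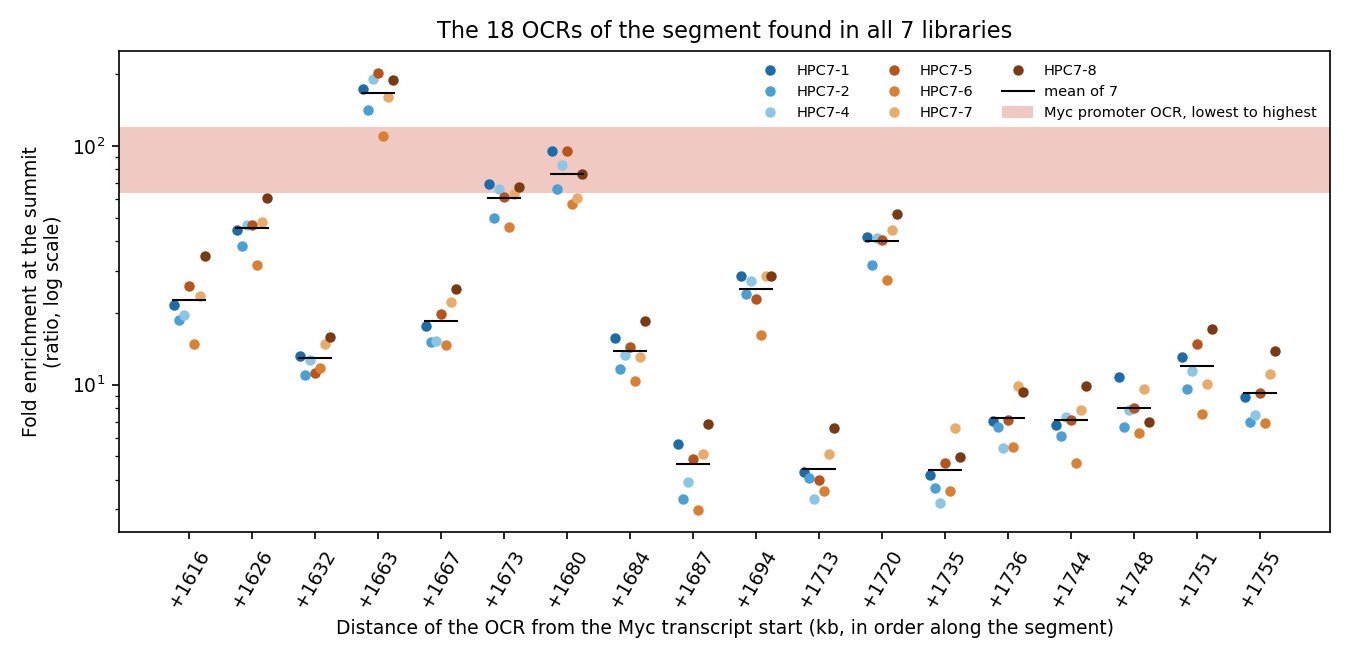
Points give the fold enrichment (log scale) of each library at the 18 shared OCRs of the segment, in order of distance from the Myc start, and the band marks the range of the Myc promoter OCR. The OCR at +1663 kb has a mean of 167 and lies mostly above the band, while +1687, +1713 and +1735 kb have means under 5.

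Motif matches within 100 bp of the summits are given as a description, with no test. Among the 18 shared OCRs of the segment, 10 held an E-box (55.6%, against 45.4% of the 66979 shared OCRs of the genome) and 6 held GAGGAA (33.3% against 29.0%). Neither was particular to the segment. Among distal shared OCRs alone, an E-box was in 50% of those of the segment and 60% of those of the rest of the window. GAGGAA was in 35.7% and 35%. AP-1 matches were found in 3 (16.7% against 11.1%), at +1667, +1680 and +1694 kb. A GATA match was found in 2 (11.1% against 14.8%), at +1694 and +1735 kb, and a RUNX match in 2 (11.1% against 27.0%), at +1694 and +1748 kb. The OCR at +1694 kb was the only one of the 18 with GATA, RUNX, GAGGAA and AP-1 matches together. The single C/EBP match was at +1673 kb (5.56% against 7.04%). No CTCF core match was found in these windows, against 6.05% of all shared OCRs of the genome. None was found in the 20 distal shared OCRs in the rest of the window either, against 7.03% of the distal shared OCRs of the genome. With so few windows, the lack of a match cannot show that such sites are rarer here. The median GC content of the 18 windows was 50.2%, against 50.7% for all shared OCRs of the genome.

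From the far edge of the segment onward lay the gasdermin C genes, which encode pore-forming proteins. No OCR was found within 3 kb of a start of Gsdmc, Gsdmc2, Gsdmc3 or Gsdmc4 in any library. The 3 shared OCRs of this end were in an intron of Gsdmc4 (+1910 kb, 54.2 ± 12.4), in the pseudogene Gsdmcl-ps (+1939 kb, 77.5 ± 5.99) and in Fam49b (+1984 kb). Fam49b, which encodes a regulator of the actin cytoskeleton, has its most open start just outside the window. The OCR there had a percentile of 96.9 ± 0.470, beside the 95.1 ± 1.42 of Myc. Of the 6 protein-coding genes that touch the window, Myc and Fam49b thus were those with a promoter OCR.

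The promoters of the other genes of the MYC network were open as well. An OCR was found within 3 kb of a start in all 7 libraries at 13 of 13 network genes, Myc included, against 60.8% of protein-coding genes. The levels differed widely. Among the MYC paralogs, Mycn had a mean intensity of 67.9 ± 11.8 (SD, n = 7) and Mycl of 42.1 ± 9.0, and Myc had 96.5 ± 20.7. Max, the dimer partner, had 208 ± 47.4 and was above Myc in 7 of 7 libraries. The antagonists that bind MAX were high too, with 287 ± 72.2 at Mxd4, 237 ± 46.7 at Mxd1, 186 ± 39.4 at Mnt, 144 ± 20.9 at Mxi1 and 134 ± 27.8 at Mxd3. Mga, a large MAX-binding repressor, had 56.0 ± 13.6. In the parallel MLX branch, which senses glucose products, Mlxip had 218 ± 47.2 and Mlx 60.1 ± 15.7. Mlxipl, best known in liver, was the weakest of the 13 with 6.29 ± 1.58. Its values, 4.38 to 9.03, were the lowest of the list in every library. By percentile among promoters, 7 of the other 12 genes stood above Myc.

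**Figure D5:**
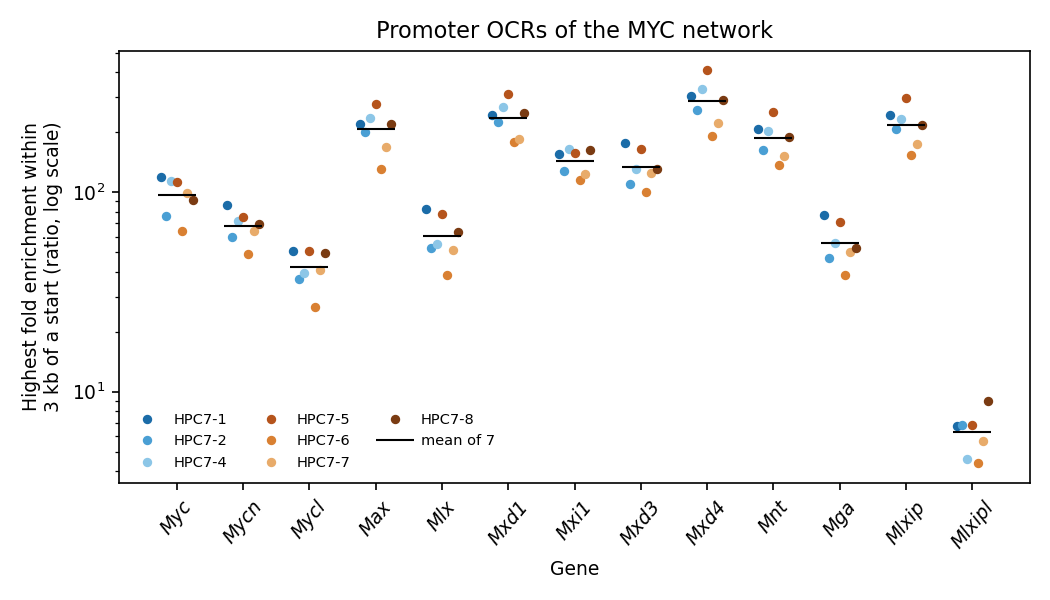
Points give the highest fold enrichment (log scale) within 3 kb of a start of each MYC network gene in each of the 7 libraries, and bars give the mean. Mxd4 has the highest mean, 287, Myc has 96.5 and Mlxipl has the lowest, 6.29.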

How the data were processed

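The data were the peaks listed for each of 7 HPC7 libraries (bulk ATAC-seq). Per the study's methods and processing notes, the authors used BWA to align reads to mm10 and MACS2 to call the peaks of every library on its own, and versions and options are not given in the sources used here. Each deposited list gives a fold enrichment at the summit (a ratio of reads to background), -log10 p and -log10 q values, a score, which was not used, and the summit. Scaling between libraries is not described in the sources used here, so tests used percentiles, ratios or differences within a library, and mean fold enrichments are given as a description. Fold enrichments followed whole multiples of 1 step in each library, within a tolerance that is not given here, and this step gave reads and background. The depth in reads is not in these lists. With 7 libraries, the SD between them gives the precision.

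Peaks were merged at 1 bp overlap and assigned to the window by their summit. Genes and 141767 transcript starts came from GENCODE M21. Tests were two-sided and exact: the sign of each library's difference was flipped in all 128 ways of the permutation (the smallest p this allows is 0.0156), and p was adjusted over 5 tests. All libraries were compared at the same fixed regions of 1 cell line. The p values therefore measure how repeatable a difference was between libraries. They do not measure the spread between OCRs, or how unusual the segment is among other loci. The sources do not say whether libraries of both name prefixes had the same treatment, and all tests take them as replicates. Named OCRs were every shared OCR at Myc and in the segment, the 5 strongest distal ones elsewhere and the widest gap, and named genes were those of the window and a MYC network list. OCRs at the edges of the window and others named beside these were chosen after their values were seen. The members and lists were chosen with earlier results of these data known. The alternatives tried were a minimum -log10 q of 5, an equal number of peaks per library (84593), 50% reciprocal overlap, 1 kb promoters, protein-coding starts, a segment from 1600 to 1750 kb, gaps of 12500 or 50000 bp, each prefix alone and each library left out in turn. Interval and test functions were checked on simulated data. Software was samtools 1.23.1 and Python 3.11.15 with scipy 1.17.1, pandas 2.3.3, numpy 2.4.6 and pysam 0.24.0. HPC7-3 was not analysed here, and 1 gene of the marker list is not reported here.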

Additional observations from a re-analysis of the deposited data

Results flagged for a closer look

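Of 32 measures with a value in each of the 7 libraries, 1 had a library far from the others, and chance alone flags about 1 in 20. This was the intensity of the distal shared OCRs of the window relative to those of the rest of the genome. In HPC7-6 their median percentile was 3.68 points lower than in the rest of the genome (-3.68), while in the other 6 libraries the difference lay between 2.51 and 5.52. HPC7-6 also had the fewest peaks, 84593 in all and 49 in the window. With the same number of peaks taken from each library the mean difference was 3.29, above 0 in 6 of 7 libraries. Without HPC7-6, over the OCRs shared by the other 6 libraries, it was -2.37, below 0 in 6 of 6 (two-sided exact sign-flip permutation test, adjusted p = 0.0625).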

How the results depend on the processing

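The higher density of OCRs in the segment and the higher intensity and width of its distal shared OCRs kept their direction. They stayed past the threshold in every alternative that allowed a test. Log2 density ratios ran from 1.61 to 2.23, percentile differences from 10.2 to 27.2 and width differences from 229 to 495 bp. The lower density of the whole window missed the threshold with equal numbers of peaks per library (log2 ratio -0.20). The percentile difference between the window and the genome was the least stable. It was 6.06 with 50% overlap, 2.42 with 1 kb promoters and 3.57 with protein-coding starts, all past the threshold, but -0.10 with the EtOH libraries alone and -0.12 with the VD libraries alone, where the shared set was chosen anew. Leaving out 1 library moved it between -2.37 (without HPC7-6, with 56 shared OCRs in place of 46) and 3.88. With 50% overlap 2 clusters were found in place of 5. Each prefix alone was given no test, since its 3 or 4 libraries are too few to pass the threshold. Overlap does not enter the density results. With equal numbers of peaks +1687, +1713 and +1735 kb were no longer shared, with 50% overlap +1616, +1687, +1736 and +1984 kb were not, and with a -log10 q of at least 5 +1687 kb was not. Every named OCR that stayed shared with equal numbers of peaks had a lower percentile there. This follows from the setting itself, which takes out the weakest peaks of the larger lists before ranking. The value was 41.9 in place of 52.7 at +1736 kb, 41.1 in place of 51.8 at +1744 kb and 98.6 in place of 98.8 at +1663 kb. All tests compared values within a library, and with 1 group there was no pairing of samples across groups.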
